A study of Mus musculus with 4 samples.

Results

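The G1 cyclins, their kinase partners, the phosphatase gene Cdc25a and the transcription factor gene E2f1 were followed in mouse embryonic stem (ES) cells exposed to the DNA-damaging drug Adriamycin with and without p53. The group holds 10 genes, listed by name for their role at the G1/S border by a rule that uses no measured value, though with earlier results of these data known: Ccnd1, Ccnd2, Ccnd3, Ccne1, Ccne2, Cdk2, Cdk4, Cdk6, Cdc25a and E2f1. All 10 were found among 22363 genes, as 14 of the 30769 transcript rows, and all 10 reached 1 FPKM (fragments per kilobase of transcript, scaled to sequencing depth) in at least 1 library, as did 12983 genes in all. Poly(A) RNA was sequenced from 4 cultures of ES cells, 1 library each: p53+/+ untreated, p53+/+ with Adriamycin, p53-/- untreated and p53-/- with Adriamycin. Adriamycin, a trade name of doxorubicin, breaks DNA by poisoning topoisomerase II and was given at 0.5 uM for 8 h. Every culture was of the strain given as C57BL/6X129Sv mix, was kept in serum with leukemia inhibitory factor and had undergone fewer than 20 passages. How the p53 allele was disrupted, and whether each genotype is 1 clone, is not given in the sources used here.

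In G1, D-type cyclins bind Cdk4 or Cdk6, and E-type cyclins bind Cdk2. These kinases phosphorylate the retinoblastoma proteins, which releases E2F transcription factors to switch on genes of DNA replication as well as Ccne1 and E2f1. ES cells are known for a short G1 with much cyclin E and Cdk2 activity. After DNA damage, p53 induces p21, the product of Cdkn1a, which binds and inhibits cyclin-CDK complexes, while checkpoint kinases mark Cdc25a protein, which activates Cdk2, for destruction.

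The libraries held 3.34 to 4.32 gigabases of aligned sequence, and 11401 to 12267 genes reached 1 FPKM in each. Trp53, the gene of p53, stood at 216 and 165 FPKM without and with the drug in p53+/+ cells and at 78.6 and 76.5 FPKM in p53-/- cells, lower but not absent. All 12 ES cell markers looked at were above 1 FPKM in every library, with Pou5f1 between 658 and 948 FPKM. Fibroblast markers set the genotypes apart: 15 markers summed to 11.9 and 21.6 FPKM in the p53+/+ libraries, with 5 of them listed at 0 in each, and to 363 and 308 FPKM in the p53-/- libraries, with none at 0. With 1 library per group there is no replicate spread, so differences stand without a replicate check and p-values are left out.

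With Adriamycin, 5 of the 10 genes were lower in p53+/+ cells by at least 1 on the log2(FPKM + 1) scale: the cyclin genes Ccnd1, Ccnd2, Ccnd3 and Ccne1, and the kinase gene Cdk6. Over all genes past 1 FPKM, 2.79% were lower by that much. No member was higher by that much, against 11.4% of all genes. E2f1 lay on the other side, near the limit, and Cdk4, Cdc25a and Ccne2 stayed within 0.14 of 0. In p53-/- cells none of the 10 passed the limit in either direction, against 0.840% of all genes (0.370% higher and 0.470% lower). The median member difference was -0.91 in p53+/+ cells and 0.19 in p53-/- cells, beside 0.05 and 0.07 over all genes. Differences on this scale understate the change of low genes such as Ccnd2, Ccne2 and Cdk6. In bulk RNA, fewer cells of one kind (cells in G1, for instance) and less RNA per cell cannot be told apart.

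**Figure D1:**
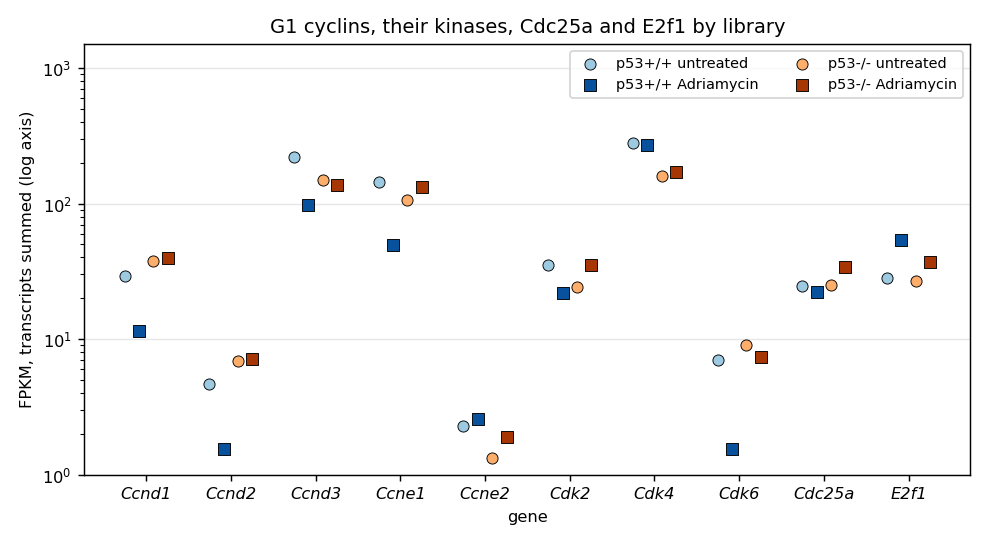
Summed FPKM (log axis) of the 10 genes in each of the 4 libraries, 1 point per library. In treated p53+/+ cells (dark blue squares) Ccnd1, Ccnd2, Ccnd3, Ccne1 and Cdk6 stand at their lowest level of the 4 libraries and E2f1 at its highest.

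The D-type cyclins couple growth signals to the cell cycle. Ccnd3 was the main one by level per length, at 219 FPKM without and 97.9 FPKM with the drug in p53+/+ cells, and at 148 and 138 FPKM without and with the drug in p53-/- cells. Its treated p53+/+ level was thus the lowest of the 4, 2.24-fold below the untreated one (difference -1.15), while the p53-/- libraries lay close together (-0.10). Nearly all of it came from the transcript NM_007632 (chromosome 17, 47730416 to 47736637 in mm9), which held 99.4% or more of the summed FPKM in each library. The transcript NM_001081635, which starts far upstream at 47642000, reached 0.914 and 0.584 FPKM without and with the drug in p53-/- cells and was near 0 in both p53+/+ libraries, with upper bounds of 0.0387 and 0.0401 FPKM.

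Ccnd1 (chromosome 7, 152115836 to 152125830) stood at 29.2 FPKM (deposited lower and upper bounds 26.8 to 29.8) without and 11.5 FPKM (10.4 to 12.2) with the drug in p53+/+ cells. In p53-/- cells it was at 37.7 FPKM (34.8 to 38.6) without and 39.8 FPKM (36.6 to 40.5) with the drug. Only the treated p53+/+ library was far from the others: the difference was -1.27 in p53+/+ cells and 0.08 in p53-/- cells, and the bounds of the latter pair overlapped. These bounds cover counting and assignment error within a library and not the spread between cultures.

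Ccnd2 (chromosome 6, 127075727 to 127101066) followed the same order at a lower level. It was at 4.68 FPKM (4.25 to 5.07) without and 1.55 FPKM (1.33 to 1.77) with the drug in p53+/+ cells, and at 6.88 FPKM (6.28 to 7.46) and 7.16 FPKM (6.55 to 7.74) in p53-/- cells. The p53+/+ difference was -1.16 on the log2(FPKM + 1) scale, or 3.03-fold without the added 1, and the p53-/- difference was 0.05. That last sign turned with upper quartile, median ratio or quantile scaling, to between -0.03 and -0.01. With 5 FPKM added in place of 1, the p53+/+ difference of Ccnd2 shrank to -0.56, below the limit.

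Together the D-type cyclins came to 253 FPKM without and 111 FPKM with the drug in p53+/+ cells, a difference of -1.18, and to 193 and 185 FPKM in p53-/- cells (-0.06). Their proportions moved little with the drug. Ccnd3 made up 86.6% and 88.2% of the summed D-type FPKM in untreated and treated p53+/+ cells, and 76.9% and 74.6% in p53-/- cells, where Ccnd1 took 19.5% and 21.5% in place of 11.5% and 10.4%.

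**Figure D2:**
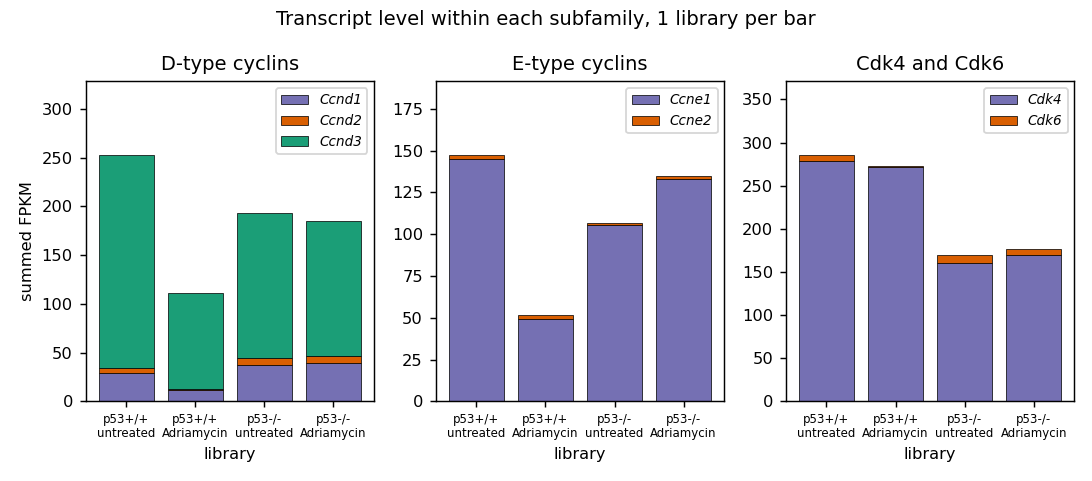
Summed FPKM of the D-type cyclins, the E-type cyclins and Cdk4 with Cdk6, stacked by gene, 1 bar per library, from 0. The treated p53+/+ bar is the lowest for both cyclin families (111 and 51.8 FPKM), whereas the Cdk4 and Cdk6 bars separate by genotype.

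Their kinase partners differed from each other. Cdk4 was the most abundant of the 10 in every library, and it lay between the 97.4 and 99.0 percentile of genes by level. It stood at 279 and 271 FPKM without and with the drug in p53+/+ cells, and at 160.2 and 169 FPKM in p53-/- cells. The drug thus made little difference in either genotype (-0.04 and 0.08, the former 0.11 after quantile normalization), and both p53-/- libraries were lower than both p53+/+ libraries, by 0.79 without and 0.68 with Adriamycin. In all 4 libraries the deposited FPKM of Cdk4 (chromosome 10, 126500659 to 126504338) lay above its own upper bound, so no bounds are given for it. From read coverage per aligned base the differences between genotypes were -0.76 and -0.72.

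Cdk6, which binds the same cyclins, had the largest p53+/+ difference of the 10. Its level was 7.05 FPKM (5.99 to 7.57) without and 1.56 FPKM (1.21 to 1.90) with the drug in p53+/+ cells, a 4.53-fold step and a difference of -1.65. In p53-/- cells it was at 9.01 FPKM (7.68 to 9.78) and 7.43 FPKM (6.27 to 7.95), a difference of -0.25, with bounds that overlapped. The treated p53+/+ library therefore stood alone at the low end. Mean read coverage of the Cdk6 transcript there (chromosome 5, 3344312 to 3522225) was 8.43 per base, against 32.0 to 37.1 in the other 3 libraries. With 5 FPKM added the difference was -0.88. Cdk6 made up 2.47% of the summed Cdk4 and Cdk6 FPKM in untreated and 0.571% in treated p53+/+ cells, and 5.32% and 4.199% in p53-/- cells.

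Among the E-type cyclins, which activate Cdk2 at the entry to S phase, Ccne1 (chromosome 7, 38883003 to 38892509) made up between 95.03% and 98.8% of the summed FPKM. Its p53+/+ levels were 145 FPKM untreated and 49.3 FPKM treated, 2.95-fold apart. In p53-/- cells the order was the opposite, with 106 FPKM untreated and 133 FPKM treated. The differences were -1.54 and 0.33, and the p53+/+ one lay at the 0.462 percentile of all genes. The deposited FPKM of Ccne1 exceeded its own upper bound in every library, and the same differences from read coverage were -1.48 and 0.37.

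Ccne2 was low throughout, and the groups lay close together: 2.30 and 2.58 FPKM without and with the drug in p53+/+ cells, and 1.33 and 1.88 FPKM in p53-/- cells. The p53+/+ difference was 0.12, or -0.24 after quantile normalization, and the p53-/- difference was 0.31. Of its transcripts on chromosome 4, NM_001037134 (11118501 to 11131829) had bounds that overlapped in each of the 4 comparisons of libraries. NM_009830 (11118856 to 11131926) stood at 0.556 and 0.741 FPKM without and with the drug in p53+/+ cells. In untreated p53-/- cells it had a coverage near 0 and an upper bound of 0.032 FPKM, and with the drug it was at 0.302 FPKM (0.124 to 0.480). At these levels a transcript's share of the gene rests on few reads.

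Cdk2, the partner of the E-type cyclins, stood at 35.0 and 21.7 FPKM without and with the drug in p53+/+ cells and at 24.2 and 35.0 FPKM in p53-/- cells. The untreated p53+/+ and treated p53-/- libraries were thus level, and the drug went with a lower value in one genotype and a higher one in the other (-0.66 and 0.51). Neither passed the limit of 1, but their difference did, at -1.18. The deposited tables hold 2 Cdk2 transcripts on the same span (chromosome 10, 128134995 to 128142107), NM_183417 and the 144 bases shorter NM_016756. The shorter one moved more. It stood at 13.7 FPKM (12.4 to 15.1) and 7.33 FPKM (6.35 to 8.31) without and with the drug in p53+/+ cells, and at 10.1 FPKM (8.82 to 11.4) and 18.5 FPKM (16.8 to 20.2) in p53-/- cells, with bounds apart in both genotypes. The longer one went from 21.3 FPKM (19.7 to 22.9) to 14.4 FPKM (13.2 to 15.7) in p53+/+ cells, while in p53-/- cells its values of 14.1 FPKM (12.7 to 15.5) and 16.5 FPKM (14.99 to 17.97) had bounds that overlapped. The shorter form made up 39.2%, 33.7%, 41.8% and 52.9% of Cdk2 in untreated and treated p53+/+ and in untreated and treated p53-/- cells. With only the longer, more abundant transcript used for the gene, the response difference was -0.74 and no longer past the limit. Reads shared by both forms are divided by an estimate, so these shares are less certain than the sum.

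**Figure D3:**
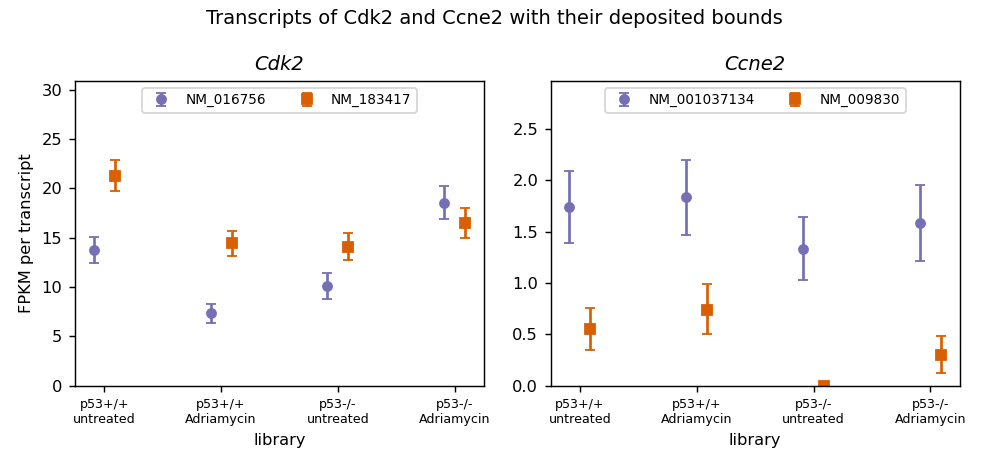
FPKM of each transcript of Cdk2 and Ccne2 by library, with bars for the deposited lower and upper bounds, which cover counting and assignment error only. Treated p53-/- cells are the only library in which the shorter Cdk2 transcript NM_016756 (18.5 FPKM) stands above NM_183417 (16.5 FPKM).

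Cdc25a, the phosphatase that removes inhibitory phosphates from Cdk2, differed little with the drug in p53+/+ cells, at 24.6 FPKM (22.5 to 25.1) and 22.3 FPKM (20.4 to 23.0), with bounds that overlapped (difference -0.14). In p53-/- cells it was at 25.2 FPKM (23.0 to 26.0) without and 34.1 FPKM (31.2 to 34.7) with Adriamycin, a difference of 0.42 with bounds apart. The treated p53-/- library was the highest of the 4. The transcript lies on chromosome 9 from 109778083 to 109796394.

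E2f1 (chromosome 2, 154385375 to 154395588) had the highest difference of the 10 with the drug in p53+/+ cells. It stood at 28.4 FPKM untreated and 53.7 FPKM treated, 1.89-fold more, and at 26.7 and 36.7 FPKM in p53-/- cells. Both treated libraries were above both untreated ones. The differences were 0.90 and 0.45, short of the limit of 1. The first lay at the 86.6 percentile of all genes, so it was not far out in that comparison. The second, in p53-/- cells, lay at the 96.0 percentile. In both treated libraries the FPKM lay slightly above its own upper bound, which was 53.5 FPKM in p53+/+ cells. E2f1 held the sixth place by level among the 10 genes in untreated and the third place in treated p53+/+ cells, above Ccne1.

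Promoter windows were set beside the responses because E2F factors bind several of these genes. The RefSeq table of GRCm38.p6, a build other than the mm9 of the deposited positions, held 8 windows for 7 of the 10 genes. The 250 bases before each start were searched on both strands for the E2F motif TTTNNCGC, the GC box GGGCGG and the CHR motif TTTGAA, and in these windows no match to one motif overlapped a match to another motif, while 2 GC boxes of Cdc25a shared 1 base. Printed here are Ccne1, which had a large p53+/+ difference, and Cdk2 and Cdc25a, which had smaller ones, with E2F matches on either strand in capitals.
Ccne1 promoter, chr7:38107491-38107740, - strand: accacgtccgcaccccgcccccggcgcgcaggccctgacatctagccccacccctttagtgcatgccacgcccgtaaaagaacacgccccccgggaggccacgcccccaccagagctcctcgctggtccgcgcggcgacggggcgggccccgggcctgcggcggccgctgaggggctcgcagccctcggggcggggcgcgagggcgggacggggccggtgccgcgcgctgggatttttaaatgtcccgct
Cdk2 promoter, chr10:128705052-128705301, - strand: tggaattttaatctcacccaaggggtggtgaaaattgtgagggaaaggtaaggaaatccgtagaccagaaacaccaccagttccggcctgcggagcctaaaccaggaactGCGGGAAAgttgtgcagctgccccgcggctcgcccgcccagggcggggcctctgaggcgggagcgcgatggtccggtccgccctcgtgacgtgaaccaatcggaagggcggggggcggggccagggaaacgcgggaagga
Cdc25a promoter, chr9:109875329-109875578, + strand: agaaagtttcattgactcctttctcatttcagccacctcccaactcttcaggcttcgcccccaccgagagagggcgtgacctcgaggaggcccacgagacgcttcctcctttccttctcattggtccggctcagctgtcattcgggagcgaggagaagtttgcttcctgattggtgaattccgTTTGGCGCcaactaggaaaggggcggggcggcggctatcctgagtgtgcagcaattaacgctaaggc
The E2F letters were found in 3 of the 8 windows, those of Cdk2, Cdc25a and Cdk6, and in 4.28% of all 32851 windows of that length. In Cdc25a the match TTTGGCGC lay 67 to 60 bases before the start, and in Cdk2 the match TTTCCCGC was on the other strand, 140 to 133 bases before it. The Ccne1 window held none, and 4 GC boxes. A GC box was found in 7 of the 8 windows and in 32.7% of all, and the CHR letters in 0 of 8 and in 16.0% of all. The 8 windows held 56.4% to 77.6% G and C, against a median of 52.4% over all windows, and its part in these motif counts was not tested. The windows of Cdk6, E2f1 and Cdc25a start 2889, 466 and 61 bases inside the annotated gene span, so they may not be the main start. One of the 2 Ccnd3 windows starts 88416 bases inside it. The mm9 positions place NM_007632, which held nearly all Ccnd3 FPKM, equally far from the upstream transcript start. The other Ccnd3 window lies at the upstream end of the span. For the Cdk2 window, alone of the 8, the bases just after the start were not found in a GENCODE transcript of the gene. Genes with a match thus differed in p53+/+ cells by -1.65 (Cdk6), -0.66 (Cdk2) and -0.14 (Cdc25a). The Cdk6 match, TTTTACGC, lay 198 to 191 bases before a start that may not be the main one.

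**Figure D4:**
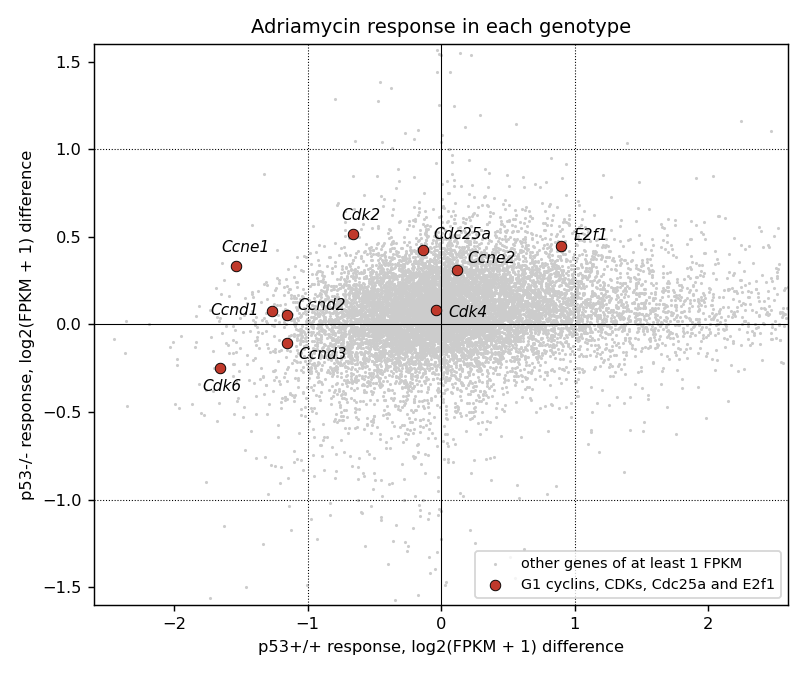
Difference in log2(FPKM + 1) between treated and untreated cells, p53+/+ on the x axis and p53-/- on the y axis, for the 10 genes (red) and all others of at least 1 FPKM (grey, 167 outside the plotted range). Ccnd1, Ccnd2, Ccnd3, Ccne1 and Cdk6 lie left of -1 on the x axis and within 0.33 of 0 on the y axis, and E2f1 lies at 0.90 and 0.45.

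The response difference, p53+/+ minus p53-/-, was at or below -1 for 6 of the 10 genes, against 3.29% of all genes, and none was at or above 1, against 10.4%. Ccne1 stood at -1.87, Cdk6 at -1.41, Ccnd1 at -1.35, Ccnd2 at -1.21, Cdk2 at -1.18 and Ccnd3 at -1.05. The last was -0.97 after median ratio scaling and -0.96 after quantile normalization. With 5 FPKM added in place of 1, Cdk6 stood at -0.71 and Ccnd2 at -0.60, no longer past the limit. Cdc25a followed at -0.56, Ccne2 at -0.19 and Cdk4 at -0.12, and E2f1 alone was above 0, at 0.45. This quantity contains the p53+/+ response and is not a separate result.

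Without treatment, none of the 10 genes differed between genotypes by 1 or more, against 6.60% of all genes (3.47% higher and 3.13% lower). Ccnd1, Ccnd2 and Cdk6 were somewhat higher in p53-/- cells (0.36, 0.47 and 0.31, each with bounds apart), and Cdk4, Ccnd3, Cdk2, Ccne2 and Ccne1 somewhat lower, between -0.79 and -0.46. Cdc25a and E2f1 differed by 0.03 and -0.09, and the bounds of both overlapped. With the drug, 4 of the 10 were higher in p53-/- cells, against 6.69% of all genes: Cdk6 (1.72), Ccnd1 (1.70), Ccnd2 (1.68) and Ccne1 (1.42). None was lower, against 13.0% of all genes. These comparisons share libraries with the drug responses above. The fibroblast markers differed with genotype as well. Of 15, 12 and 10 were under 1 FPKM in untreated and treated p53+/+ cells, and 2 in each p53-/- library. Most of those past 1 FPKM reached it only in p53-/- cells, so a count of higher ones was largely fixed by that and is left out. Col1a1 stood at 0.727, 5.03, 151 and 117 FPKM in untreated and treated p53+/+ and in untreated and treated p53-/- cells. Their part in the genotype differences of Ccnd1, Ccnd2 and Cdk6 was not tested. With the drug in p53+/+ cells, 1 of the 13 fibroblast markers past 1 FPKM in any library, Col1a1, was higher by at least 1 (1.805), against 11.4% of all genes. Of the 13, 8 were above 0 and 2 below, and the median was 0.14. Most of them were under 1 FPKM in both p53+/+ libraries, so these values lie near the floor and no rise of the list can be read from them. Col5a1 (0.85) and Pdgfrb (0.55) followed Col1a1, and Col6a1 (0.53) went from 0.029 to 0.489 FPKM. The part of these markers in the drug responses was not tested. Of 11 primitive endoderm markers, 2 were under 1 FPKM in untreated p53+/+ cells and 6 in untreated p53-/- cells. Among 6 trophoblast markers past 1 FPKM, 3 were higher in untreated p53-/- cells, against 3.47% of all genes.

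ES cell markers also moved with the drug in p53+/+ cells. Of 12, 3 were lower by at least 1 (Zfp42, Nanog and Tfcp2l1), against 2.79% of all genes. All 12 were below 0 and the median was -0.91, beside 0.05 over all genes. Their summed level was 4608 and 3101 FPKM in p53+/+ and 3259 and 2862 FPKM in p53-/- cells. In p53-/- cells none passed the limit, against 0.840% of all genes, and the median was -0.18. The part of this shift in the lower cyclin levels was not tested.

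The inhibitors of the same kinases included 2 of 6 past 1 FPKM that were higher by at least 1 in p53+/+ cells, against 11.4% of all genes. Cdkn1a stood at 26.2 and 85.8 FPKM without and with the drug in p53+/+ cells and at 17.997 and 24.6 FPKM in p53-/- cells, so that its level per length was below that of Cdk2 in untreated and well above it in treated p53+/+ cells. Cdkn2b, the p15 inhibitor of Cdk4 and Cdk6, was at 0.911 FPKM without and 12.5 FPKM with the drug in p53+/+ cells (2.82). Its p53-/- values were 5.97 and 7.61 FPKM. Cdkn1b, which encodes p27, was at 10.6 and 5.44 FPKM in p53+/+ cells (-0.85), and at 4.08 and 4.64 FPKM in p53-/- cells, below both. Cdkn2a, which encodes p16 and Arf, separated the genotypes, with 10.4 and 11.0 FPKM in p53+/+ and 60.5 and 58.3 FPKM in p53-/- cells.

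Of the retinoblastoma family, the proteins that G1 kinases inactivate, Rb1 and Rbl2 were both higher with the drug in p53+/+ cells. Rb1 stood at 3.998 and 21.3 FPKM there and at 0.677 and 1.21 FPKM in p53-/- cells, while Rbl2, which encodes p130, stood at 1.71 and 12.1 FPKM and at 1.24 and 1.61 FPKM. Rbl1, which encodes p107, stayed between 6.11 and 7.16 FPKM in all 4 libraries. For the first pair the response differences were 1.75 and 2.05, of the opposite sign to those of the cyclins.

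None of the 9 other E2F and DP genes passed 1 in either direction in either response, against 14.2% of all genes in p53+/+ and 0.840% in p53-/- cells, so with 9 genes little can be read from that count. In the response difference E2f8 (-1.08) and E2f2 (-1.01) were below -1, against 3.29% of all genes. E2f2 and E2f8, at -0.93 and -0.92, were closest to it in p53+/+ cells, with E2f2 at 6.64 and 3.01 FPKM and E2f8, a repressor of the E2F family, at 17.7 and 8.93 FPKM. In p53-/- cells E2f2 stood at 2.10 and 2.27 FPKM, below both p53+/+ libraries, and E2f8 at 10.4 and 11.7 FPKM. E2f4, which mostly acts in repressor complexes, was the most abundant of them at 128 and 83.1 FPKM in p53+/+ and 189 and 178 FPKM in p53-/- cells.

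Of 22 genes of DNA replication that E2F factors are known to activate, none passed 1 in either direction, against 14.2% of all genes in the p53+/+ and 0.840% in the p53-/- response. In p53+/+ cells 19 were below 0, with a median of -0.21, and in p53-/- cells 21 were above 0, with a median of 0.15. All-gene medians were 0.05 and 0.07. Pcna, the sliding clamp of DNA polymerase, stood at 158 and 98.4 FPKM in p53+/+ cells, and the replicative helicase gene Mcm4 at 101 and 73.5 FPKM. Rrm2, a subunit of ribonucleotide reductase, was among the 3 above 0, at 103 and 161 FPKM, and it was higher with the drug in p53-/- cells too, at 64.0 and 92.6 FPKM. The 6 DREAM and MuvB genes, whose products repress cell cycle genes in quiescence or activate them in mitosis, were all below 0 in p53+/+ cells, with a median of -0.32 and none past 1.

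Another list held 11 genes of cyclin turnover, of ubiquitin ligases and of their assembly, not all of them specific to cyclins. Fbxw7, which targets cyclin E for destruction, was higher in treated p53+/+ cells (11.1 and 32.4 FPKM), and not in p53-/- cells (5.10 and 4.92 FPKM). Cks2 was lower in treated p53+/+ cells, at 52.6 and 18.4 FPKM (-1.47), with p53-/- values of 29.8 and 17.8 FPKM (-0.71). Cacybp was lower in treated p53+/+ cells as well, at 119 and 56.0 FPKM (-1.08), with p53-/- values of 75.1 and 87.1 FPKM (0.21). Skp2, which targets p27, stood at 17.6 and 10.3 FPKM in p53+/+ and at 13.6 and 18.3 FPKM in p53-/- cells. Of the 8 genes of the CDK-activating kinase and of phosphate control none passed 1 in either genotype, and the median in p53+/+ cells was -0.32. The later cyclins and Cdk1 did not pass it either (0 of 6). Over all genes 14.2% passed it in p53+/+ and 0.840% in p53-/- cells, so with so few genes little can be read from these counts. Ccna1 came closest, at 0.822 and 2.603 FPKM (0.98), with Cdk1 at 71.4 and 36.3 FPKM and Ccnb1 at 79.5 and 40.6 FPKM in p53+/+ cells. Unlike Ccne1, Ccnb1 was lower in treated p53-/- cells as well, at 59.5 and 32.2 FPKM (-0.87).

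**Figure D5:**
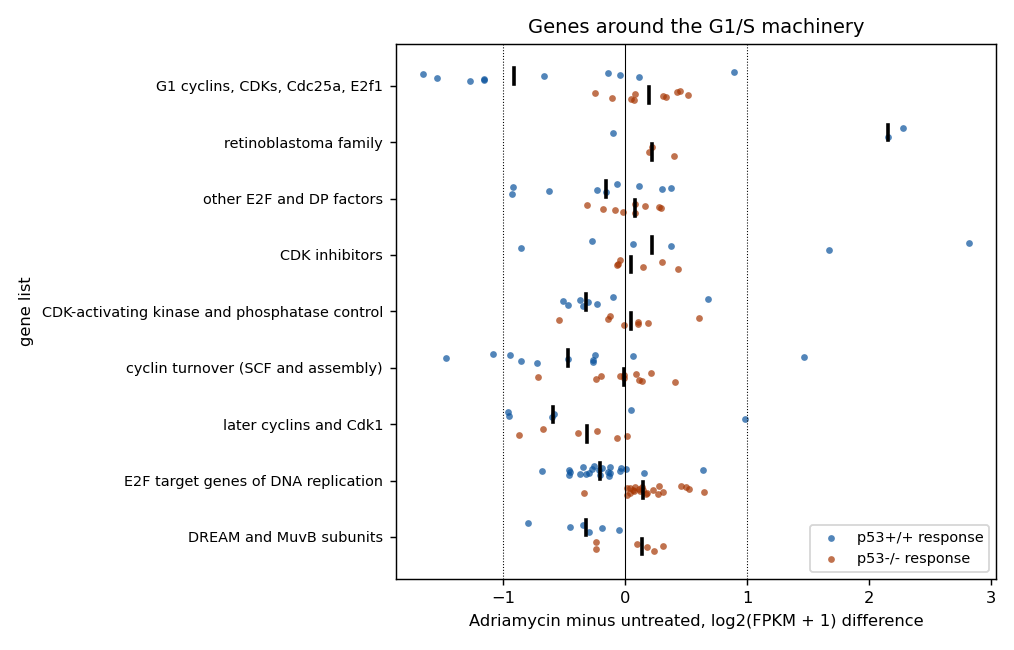
Difference in log2(FPKM + 1) with Adriamycin for each gene past 1 FPKM of 9 lists, p53+/+ in blue and p53-/- in brown, with black bars at list medians. The cyclin and CDK genes spread from -1.65 to 0.90 in p53+/+ cells, while the 22 E2F targets of DNA replication lie between -0.68 and 0.64 there.

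Likeness of pattern over the 4 libraries was measured as the largest gap between profiles of log2(FPKM + 1), each centred on its mean. Of pairs among the 10 genes, Ccnd1 and Ccnd2 were nearest at 0.08, followed by Ccnd1 and Cdk6 at 0.20. Among 8068 other genes of at least 5 FPKM on average, Emb, Trh and Cdk12 were nearest to Ccnd1 (0.06, 0.09 and 0.11), and Emb at 0.02 and Cdk12 at 0.07 were also nearest to Ccnd2. Fgf15, Nudt4 and Sin3a were nearest to Ccne1 (0.08, 0.09 and 0.16), and Srsf7, Trip10 and Bend3 to Cdk6 (0.10, 0.10 and 0.11). For E2f1 they were Metap1d, Tmem128 and Dffa (0.05, 0.05 and 0.06). With 4 libraries and that many candidates, such near matches are a description only.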

How the data were processed

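Poly(A) RNA of 4 ES cell cultures was sequenced, 1 library per group. An exome enrichment kit is listed as well, per the labels' protocols. The authors deposited transcript tables of FPKM with lower and upper bounds, read coverage (signal per base) and length, in Cufflinks layout per the file headers. CASAVA 1.8.1, TopHat2 2.0.5, TopHat, Cufflinks and mm9 are named, without roles, per the submitters' processing notes. The Cufflinks version and annotation are not given in the sources used here. Because these are normalized values, count models were not used.

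Of 30769 rows, 29696 were named from RefSeq (GRCm38.p6) and 182 from GENCODE M21, and 747 rows of short RNAs were left out. Transcripts were summed per gene. Libraries were compared by log2(FPKM + 1) among the 12983 genes of at least 1 FPKM in at least 1 library, and called at 1 or more. In each library 1525 to 2036 rows exceeded the upper bound given for them. Depth was coverage times length summed over rows. File positions start at 0 and are printed from 1. Motif letters were searched by exact match.

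The members, gene lists, motifs and comparisons were chosen with earlier results of these data known. Named genes were all members, up to 4 genes per list with the largest differences in a comparison, and the 3 nearest in pattern. Trp53 and Pou5f1 fall outside that rule and were chosen after their values were seen. The alternatives were 11 fixed settings and 1 added after seeing the data. Scripts ran under Python 3.11.15, pandas 2.3.3, numpy 2.4.6 and (figures) matplotlib 3.10.9, after being tested on simulated data.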

Additional observations from a re-analysis of the deposited data

Results flagged for a closer look

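In 4 genes the single treated library of each genotype lay on opposite sides of its untreated library, with responses at least 1 apart on the log2(FPKM + 1) scale. The p53+/+ response minus the p53-/- response was -1.87 for Ccne1, -1.35 for Ccnd1, -1.21 for Ccnd2 and -1.18 for Cdk2. With 1 library per group this difference was not tested. The share of all genes meeting both conditions was not counted, so this count has no background beside it. Over all genes 3.29% had a response difference at or below -1. The p53-/- responses behind it were small for Ccnd1 and Ccnd2 (0.08 and 0.05), and for Ccnd2 the sign turned under 3 scalings.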

How the results depend on the processing

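Counts of members past the limit moved by over 1.5 times in these cases. With 5 FPKM added in place of 1, 3 members were lower in the p53+/+ response in place of 5, against 1.18% of all genes. In treated p53-/- cells 2 were higher in place of 4, against 2.57% of all genes, and Ccnd2 and Cdk6 were below the limit in both comparisons. Ccnd2 and Cdk6 were below it in the response difference too, where the count (4 in place of 6, against 1.22% of all genes) kept within 1.5 times. At a 3-fold step 1 member remained lower in the p53+/+ response (Cdk6 at -1.65) and 1 in the response difference (Ccne1). Over all genes 0.393% and 0.493% were lower there. At a 1.5-fold step 7 differed between treated genotypes, 6 higher and 1 lower (Cdk4), against 17.7% higher and 23.4% lower over all genes. Between untreated ones 1 differed, again Cdk4, against 10.3% higher and 10.95% lower, so little can be read from that 1. The other 110 values of counts and of shares within a family kept within 1.5 times or 5 percentage points. Of the members' single differences under these settings 554 kept their call, 20 lost it and 6 gained it, and no called one reversed. Quantile normalization moved the median of all genes in the p53+/+ response from 0.05 to -0.10 and left Ccnd3 at -0.95 there. It moved the share of higher among called genes from 80.3% to 65.4% in the p53+/+ response, from 33.9% to 44.1% between treated genotypes and from 76.0% to 65.5% in the response difference. In rows within their own bounds 7 members were measured, without Ccne1, Cdk4 and E2f1. Of them 4 were lower in the p53+/+ response, against 2.51% of all genes. Read coverage per aligned base, added after seeing the data, gave 5 lower there, as in the deposited FPKM, against 2.45% of all genes. No paired analysis was possible because each group has 1 library. Leaving out a library was not possible for the same reason.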
